A study of Mus musculus with 7 samples.

Results

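Potassium channel genes were examined in ribosome-bound RNA of the adult mouse retina after treatment with an antibody against Dll4 or with a control IgG. The members are the genes in the table whose symbol starts with Kcn, followed by letters for the subfamily and a number, with Kcnj8 and Kcnj10 left out. They number 48 of 12756 listed genes, and 29 of the 48 passed the filter on low values and were tested. The 19 others had at least 1 CPM (reads of a gene per 1000000 reads of the listed genes) in fewer than 3 libraries.

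Both groups were adult C57BL/6 mice of the genotype Cdh5-CreERT2 Rpl22 tm1.1Psam. In this RiboTag design the endothelial Cdh5 promoter drives an inducible Cre, which switches on an HA-tagged form of the ribosomal protein Rpl22, and tagged ribosomes are pulled down with an anti-HA antibody. The groups were control IgG (3 libraries) and anti-Dll4, an antibody against a Notch ligand of endothelial cells (4 libraries). The comparison asks which ribosome-bound transcripts differ when Dll4 is blocked. Nothing in the labels ties a library to an animal of its own, nor gives dose or duration. The p-values therefore measure only the spread between these libraries, which may be technical.

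Potassium channels let potassium leave or enter cells along its gradient and set the resting potential and the shape of electrical signals. Voltage-gated Kv channels open on depolarization, calcium-activated channels couple calcium to repolarization, inward rectifiers and two-pore-domain channels hold the resting potential, and auxiliary subunits tune gating and trafficking. In the retina they shape the light responses of photoreceptors and the firing of inner neurons. In vessels they set the tone of endothelium and mural cells.

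The table held 1356192 to 1771086 reads per library, and 3 reads, the limit that a count of 0 allows, correspond to 1.69 to 2.21 CPM. The pulled-down RNA was not endothelial alone. The summed level of 12 rod markers was 25425 to 26613 CPM in control and 10759 to 20426 CPM in anti-Dll4 libraries, and 18 listed endothelial markers summed to 2044 to 3155 and 4375 to 5635 CPM. Rod markers had a negative change for 11 of 12, endothelial markers a positive one for 15 of 18, and neither sum overlapped between groups. Sums of markers of bipolar cells (1672 to 2583 CPM over all libraries), amacrine cells (228 to 671 CPM) and ganglion cells (170.1 to 419 CPM) overlapped. Most of these markers still had a negative change, 6 of 8, 6 of 7 tested and 6 of 8. Their median log2 changes were -0.59, -1.24 and -1.49, beside -0.70 for rod markers. Cone markers were negative for 7 of 8, while Müller glia markers were positive for 6 of 8. None of the listed markers was at 0 in every library. Anti-Dll4 3 had the lowest rod sum. In bulk RNA, fewer cells of a type and less RNA per cell cannot be told apart, and the part of this shift in the values below was not tested.

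No potassium channel gene passed the test. Of the 29 tested, 0 had an adjusted p under 0.05 (limma, Benjamini-Hochberg over all genes; lowest adjusted p = 0.598), against 0.119% of all tested genes. At an unadjusted p under 0.05 there were 6 members, 20.7% of those tested, against 7.09% of all tested genes. Of these, 5 were lower in anti-Dll4 libraries (Kcnc1, Kcnh6, Kcnip2, Kcnip3 and Kcnj9, against 3.41% of all genes) and 1 was higher (Kcnc2, against 3.68%). The 6 came down to 3 (10.3%) without control IgG 3, control IgG 4 or anti-Dll4 3, against 5.5%, 5.24% and 6.42% of all genes. With libraries scaled on rod markers there were 2, or 6.9% of the members against 9.1% of all genes, so the larger share among the members was no longer seen. The median member change was still 0.66 below that of all genes under this scaling, against 0.63 below in the main fit. The part of rod RNA in these values was not tested. With no filter there were 4 of 48, or 8.33% against 6.11%. Voom on whole reads called 0 members as well, with 5 at an unadjusted p under 0.05 (17.2% against 8.3%). With libraries scaled on endothelial markers, which moved the median change of all genes from -0.14 to -1.36, 4 members passed as lower (Kcna6, Kcnc1, Kcnh6 and Kcnj14), 13.8% of those tested against 4.37% of all genes. At an unadjusted p under 0.05 the shares under this scaling were closer, with 9 members, or 31% against 25.5% of all genes.

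Groups of libraries did not overlap for 3 of the 29 (10.3%), Kcnh6, Kcnj9 and Kcnip3, all of them lower after anti-Dll4. Over all tested genes this held for 7.59%, 3.75% lower and 3.84% higher. For Kcnip3 it rests on 2 reads each in control IgG 3 and 4 against at most 1 in an anti-Dll4 library. These counts are within the 3 reads that a count of 0 allows, so Kcnip3 cannot be told from an overlap. Changes were negative for 19 and positive for 10 of the 29 tested members, with a median log2 change of -0.77. Over all tested genes 54.5% were negative and the median was -0.14. The median of the members was -0.37 without anti-Dll4 1, -0.46 without anti-Dll4 4 and -0.51 without control IgG 4, where that of all genes was -0.17, -0.14 and -0.15. With 5 CPM added in place of 1 it was -0.44, against -0.075 over all genes. The filter bears on such counts, since Kcnip3 passed it through the control libraries alone and Kcnc2 through the anti-Dll4 libraries alone. Standard errors of the members ran from 0.37 for Kcnj14 to 1.92 for Kcna5, with a median of 1.31. For Kcnd3, Kcnv2, Kcnab3 and Kcnmb4 the log2 change and the difference of mean CPM had opposite signs, and each of these had a library under 3 CPM.

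**Figure D1:**
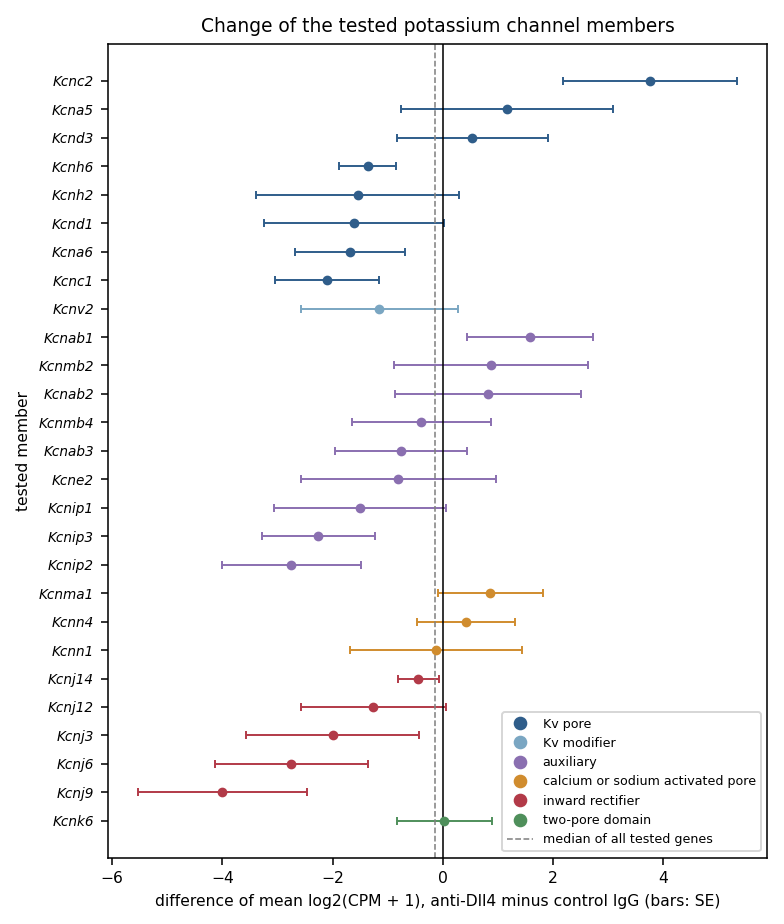
Difference of mean log2(CPM + 1), anti-Dll4 minus control IgG, for 27 of the 29 tested members (points; bars are limma standard errors), grouped by role. The dashed line is the median of all tested genes (-0.14). All 5 inward rectifiers lie below 0, as did 54.5% of all tested genes. Most bars of the sparse members are over 1 log2 unit long on each side.

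Members were sparse and uneven between libraries. Of 336 values (48 members in 7 libraries), 41.4% were 0 reads and a further 14% were 1 to 3 reads, while over all listed genes 18.5% were 0. Only 8 members had more than 3 reads in every library, Kcna6, Kcnab2, Kcnc1, Kcnh6, Kcnj14 and Kcnma1 among them. In 12 of the 48 (25%), over 90% of the reads came from 1 library, as in 8.6% of all listed genes. Kcnj15 had 173 reads in anti-Dll4 3 and 0 in the other libraries, Kcne3 had 85 in anti-Dll4 4 alone, and Kcnt1 45 in control IgG 3 alone. The number of members with more than 3 reads was 23 to 25 per control library and 22, 20, 15 and 22 in anti-Dll4 1 to 4.

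**Figure D2:**
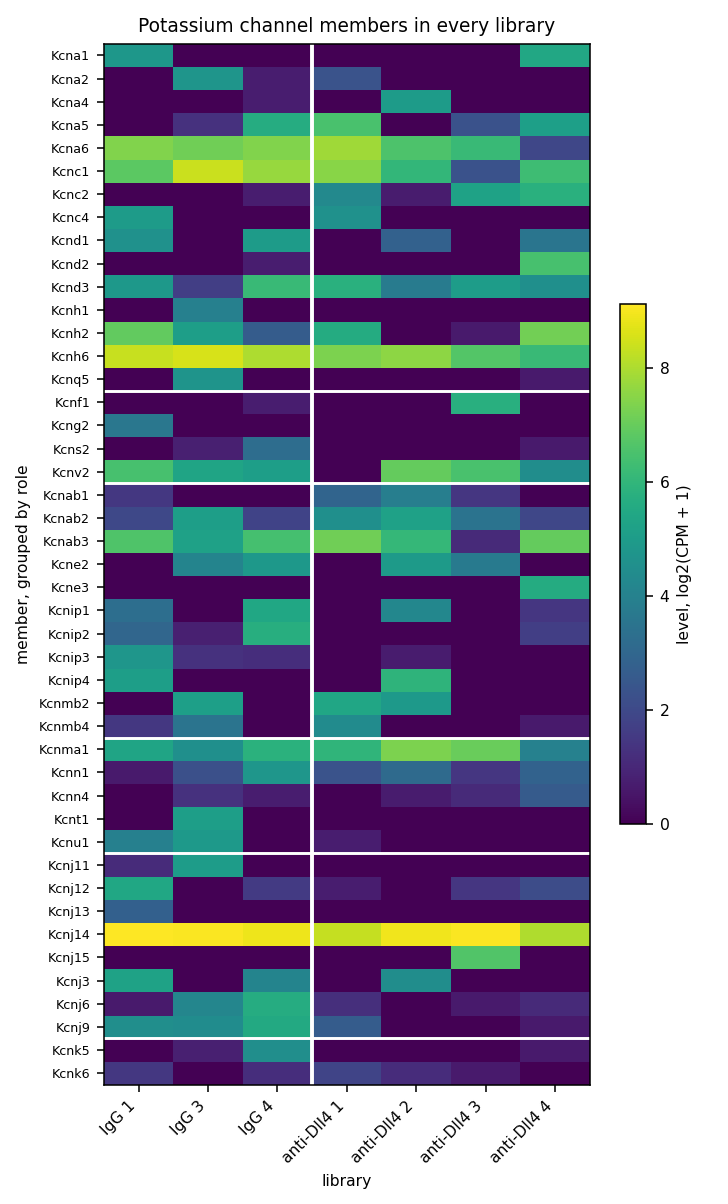
Level of 45 of the 48 members, as log2(CPM + 1), in the 7 libraries (columns; the thick line parts control IgG from anti-Dll4). White lines part the roles in the order Kv pore, Kv modifier, auxiliary, calcium or sodium activated pore, inward rectifier and two-pore domain. Dark cells are values at or near 0 reads. Over all 48 members 41.4% of values were 0.

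The summed level of all 48 members was 2122, 2243 and 2199 CPM in the control libraries and 1768, 1996, 1354 and 1566 CPM in the anti-Dll4 libraries. Every anti-Dll4 sum was below every control sum. The means were 2188 ± 61.3 CPM (SD, n = 3) and 1671 ± 275 CPM (SD, n = 4). Without Kcnh6 the groups overlapped, with 1799, 1862 and 1948 CPM against 1610.4, 1808, 1254 and 1494 CPM. The 4 highest members held 49.0% to 70.6% of the sum of a library. Without these 4 the groups overlapped as well, at 660 to 939 CPM in control and 668 to 901 CPM in anti-Dll4 libraries. QuantSeq levels are not divided by length, and the order of members here is one of reads. The lowest sum of all 48 members, in anti-Dll4 3, stood in the library with the lowest rod marker sum. The part of that in the result was not tested.

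**Figure D3:**
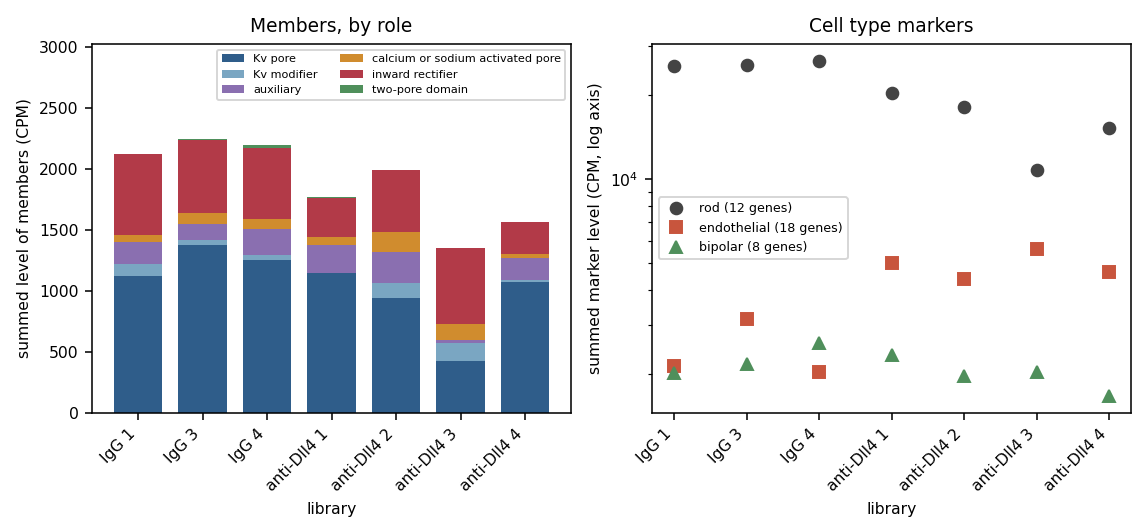
Left, summed CPM of the 48 members in each library, stacked by role; right, summed CPM of rod, endothelial and bipolar markers on a log axis. Member sums were 2122 to 2243 CPM in control and 1354 to 1996 CPM in anti-Dll4 libraries, beside lower rod and higher endothelial sums.

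Among the Kv pore subunits, 18 genes were listed and 10 tested, 6 with a negative and 4 with a positive change. Kcnh6, a pore subunit of the ERG type, whose channels recover quickly from inactivation and carry current during repolarization, had the lowest p of the members. Its level was 323, 381 and 252 CPM with IgG and 158, 188, 101 and 72.3 CPM after anti-Dll4. Every anti-Dll4 library lay below every control library. The log2 change was -1.36 ± 0.51 (SE; adjusted p = 0.598, limma; 95% interval -2.43 to -0.30). It lay between -1.57 and -1.12 with any 1 library left out, and was -0.64 with libraries scaled on rod markers. Kcnh2, the related ERG channel of heart and brain, was uneven within both groups, with 122, 33.9 and 5.21 CPM with IgG and 48.2, 0, 0.566 and 142 CPM after anti-Dll4. Its log2 change of -1.54 ± 1.84 (SE) was within that spread.

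Kcnc1 encodes Kv3.1, a fast channel that lets neurons fire at high rates. It was at 112, 335 and 209 CPM with IgG and 181, 64.2, 3.97 and 77.4 CPM after anti-Dll4. The 3 lowest values were all from anti-Dll4 libraries, but the groups overlapped through anti-Dll4 1 and control IgG 1. The log2 change was -2.11 ± 0.94 (SE; adjusted p = 0.695, limma), and -1.03 without anti-Dll4 3. Kcnc2, which encodes the related Kv3.2, went the other way, with 0, 0 and 1 reads with IgG and 28, 1, 65 and 95 reads after anti-Dll4. Pooled over libraries this is a 130.0-fold ratio, with an exact counting interval of 23.1 to 5163 that leaves out the spread between libraries. The fitted change of 3.76 ± 1.58 (adjusted p = 0.688, limma) depends on the added 1 CPM, with a single read in control. Anti-Dll4 2 stood with the controls, and Kcnc2 passed the filter through the anti-Dll4 libraries alone.

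Kcnv2, a modifier subunit that joins other Kv pore subunits in rods and cones and whose loss causes a human cone dystrophy, had 87.3, 39.1 and 33.2 CPM with IgG and 0, 122, 88.9 and 20.9 CPM after anti-Dll4. Its mean CPM was 53.2 ± 29.7 (SD, n = 3) and 58 ± 57.3 (SD, n = 4). The log2 change of -1.16 ± 1.42 came from the anti-Dll4 1 library, at 0 reads, and was 0.33 without it. The other modifier subunits were under the filter. Kcnf1 had 93 reads in anti-Dll4 3 and 1 elsewhere, Kcng2 19 in control IgG 1 alone, and Kcns2 13 in control IgG 4 and 1 each in control IgG 3 and anti-Dll4 4.

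Kcna6, a Kv1 subunit of neurons, was even in control (168, 142 and 167 CPM) and ran from 2.82 to 224 CPM in anti-Dll4 libraries (224, 94.8, 70.8 and 2.82). The log2 change was -1.69 ± 1.00 (SE; adjusted p = 0.75, limma) and -0.46 without anti-Dll4 4, the library at 2.82 CPM. Kcnd3, a Kv4 subunit of the transient A-type current, had a change of 0.54 ± 1.38 that turned negative without control IgG 3 (-0.74) and under scaling on endothelial markers (-0.82). Kcna5 had 0, 2 and 75 reads with IgG and 132, 0, 7 and 61 after anti-Dll4, and Kcnd1 40, 0 and 48 against 0, 10, 0 and 19. The 8 Kv pore genes under the filter were mostly seen in single libraries: Kcnd2 had 156 reads in anti-Dll4 4 and 1 elsewhere, Kcna4 51 in anti-Dll4 2 and 1 elsewhere, Kcnq5 34 in control IgG 3 and 1 elsewhere, and Kcnh1 20 in control IgG 3 alone. Kcna1 had 46 reads in control IgG 1 and 76 in anti-Dll4 4, and Kcnc4 52 in control IgG 1 and 35 in anti-Dll4 1. Kcna2 had at most 35 reads in a library.

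**Figure D4:**
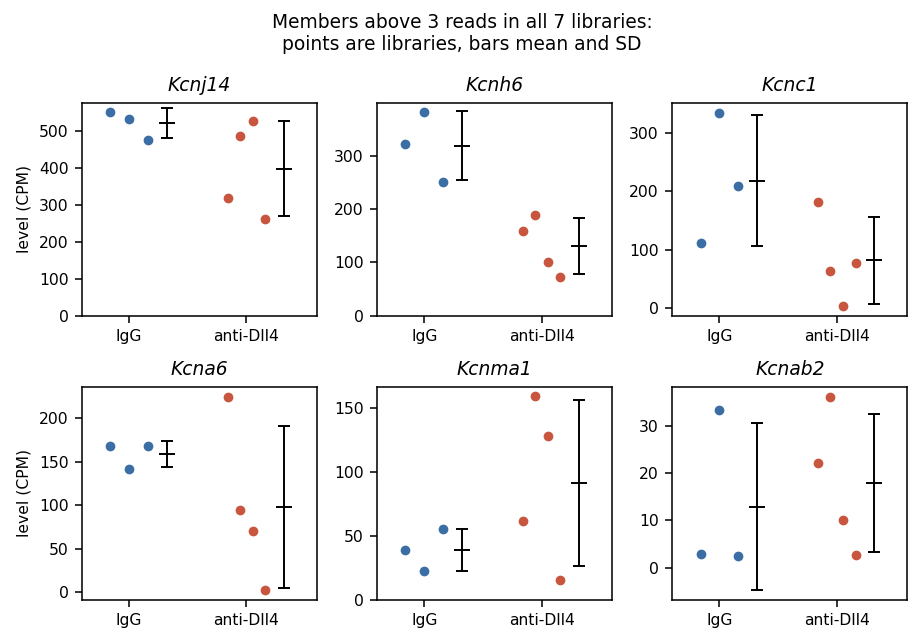
Level in CPM of 6 of the 8 members with more than 3 reads in every library; points are libraries, black bars the mean and SD of each group. For Kcnh6 the 3 control libraries (252 to 381 CPM) lie above the 4 anti-Dll4 libraries (72.3 to 188 CPM), while the groups overlap for the other 5 shown.

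All 5 tested inward rectifiers had a negative change, from -4.00 to -0.44, beside 54.5% of all tested genes. Kcnj14 turned to 0.28 when libraries were scaled on rod markers. Only 1 of the 5 had groups that did not overlap, beside 7.59% of all tested genes (3.75% lower). This was Kcnj9, which encodes GIRK3, a subunit of the channels that G protein-coupled receptors open in neurons. It was at 21.8, 20.6 and 45.6 CPM with IgG and 5.36, 0, 0 and 0.565 CPM after anti-Dll4, from 37, 28 and 70 against 8, 0, 0 and 1 reads. The log2 change was -4.00 ± 1.54 (SE; adjusted p = 0.629, limma), between -4.62 and -3.65 with any 1 library left out. With 3 anti-Dll4 libraries at 0 or 1 read its size depends on the added 1 CPM, and it was -2.41 with 5 CPM added. Markers of ganglion and of bipolar cells each had a negative change for 6 of 8, with sums that overlapped; their part in the Kcnj9 result was not tested. The other GIRK genes were uneven. Kcnj6, which encodes GIRK2, had 1, 23 and 75 reads with IgG and 2, 0, 1 and 2 reads after anti-Dll4. Kcnj3, which encodes GIRK1, had 63, 0 and 25 against 0, 35, 0 and 0 reads.

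Kcnj14, which encodes the inward rectifier Kir2.4, had more reads over all libraries than any other member. Its level was 554, 535 and 476 CPM with IgG and 318, 486, 529 and 261 CPM after anti-Dll4. Anti-Dll4 1 and 4 were below all controls, while anti-Dll4 2 and 3 lay among them. The log2 change was -0.44 (95% interval -1.21 to 0.33; adjusted p = 0.834, limma). Kcnj12, a Kir2 gene, had 72, 0 and 3 reads with IgG and 1, 0, 3 and 6 reads after anti-Dll4. Kcnj11, the pore of ATP-sensitive channels, and Kcnj13, an inward rectifier of the pigment epithelium, had 0 reads in every anti-Dll4 library and 45 and 10 reads over the control libraries, all but 2 of them from 1 library each.

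The start regions of Kcnh6 and Kcnj9, the members with a mean of at least 5 CPM whose groups did not overlap, are shown because a Notch ligand was blocked and Notch acts on genes through the DNA-binding protein Rbpj. Sequences are RefSeq's, from GRCm38.p6, written 5′ to 3′ on the gene's strand, from 250 bases before to 50 after the start. Capitals mark matches on either strand to TGGGAA, the core that Rbpj binds, and to TAATCC, the core bound by the photoreceptor factors Crx and Otx2. The window of Kcnh6 is chr11:106007898-106008197 (plus strand) and that of Kcnj9 is chr1:172329273-172329572 (minus strand).
Kcnh6: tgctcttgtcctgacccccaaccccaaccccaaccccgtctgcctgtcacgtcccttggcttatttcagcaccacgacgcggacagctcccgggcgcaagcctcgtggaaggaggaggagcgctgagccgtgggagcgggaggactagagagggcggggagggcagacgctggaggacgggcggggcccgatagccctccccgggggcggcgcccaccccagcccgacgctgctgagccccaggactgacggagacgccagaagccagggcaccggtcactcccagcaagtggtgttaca
Kcnj9: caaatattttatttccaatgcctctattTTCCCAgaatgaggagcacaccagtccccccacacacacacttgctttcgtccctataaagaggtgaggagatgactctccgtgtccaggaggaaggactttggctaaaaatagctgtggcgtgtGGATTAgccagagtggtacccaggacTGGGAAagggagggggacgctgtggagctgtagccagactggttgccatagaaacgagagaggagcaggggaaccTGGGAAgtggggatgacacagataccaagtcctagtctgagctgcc
The Kcnh6 window held neither motif, and the Kcnj9 window held 3 matches to TGGGAA and 1 to TAATCC. Entries were found for 34 of the 48 members, with 51 windows. TGGGAA was in 25.5% of these windows and in 25.6% of all 32851 windows of the same length. TAATCC was in 1.96% and 7.06%, Kcnj9 being the 1 member with a match. A match describes letters and is not a measured binding site.

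Auxiliary subunits numbered 11 listed and 9 tested, 6 with a negative change. All 3 tested Kcnip genes, which encode calcium-binding partners of Kv4 channels, were among the 6. Kcnip2 had 12, 1 and 79 reads with IgG and 0, 0, 0 and 4 after anti-Dll4, a log2 change of -2.75 ± 1.27 (SE). Control IgG 4 held 82.3% of its reads, and the change was -1.48 without that library and -1.52 with 5 CPM added. Kcnip3, which is also the transcriptional repressor DREAM, had 45, 2 and 2 reads with IgG and 0, 1, 0 and 0 after anti-Dll4. Its groups did not overlap, but 90% of its reads came from control IgG 1. Pooled, it was 71.2-fold higher in control, with an exact counting interval of 12.2 to 2869.8. That interval leaves out the spread between libraries, and Kcnip3 passed the filter through the control libraries alone. Its fitted change was -2.26 ± 1.02 (adjusted p = 0.695, limma) and -1.08 without control IgG 1 or with 5 CPM added. Kcnip1 overlapped, with 15, 0 and 65 against 0, 29, 0 and 3 reads, and Kcnip4 was under the filter, with 57 reads in control IgG 1 and 97 in anti-Dll4 2.

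The Kvbeta genes, whose products attach to the inside of Kv1 channels, had changes of both signs. Kcnab3 was at 96.2, 36.1 and 85.4 CPM with IgG and 139, 66.1, 1.13 and 125 CPM after anti-Dll4, with anti-Dll4 3 far below the rest. Its log2 change of -0.77 ± 1.20 turned to 0.64 without that library. Kcnab2 had a change of 0.81 ± 1.69 and Kcnab1 of 1.58 ± 1.14. For Kcnab1 this came from 3, 0 and 0 reads with IgG and 10, 23, 3 and 0 after anti-Dll4. Its size therefore depends on the added 1 CPM. Kcnmb2, a beta subunit of the BK channel, had 47 reads in control IgG 3, 62 and 48 in anti-Dll4 1 and 2, and 0 elsewhere, and Kcne2 had 0, 22 and 43 against 0, 50, 22 and 0 reads.

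Among channels opened by calcium or sodium, Kcnma1, the pore of the large-conductance BK channel, had most reads. It was at 38.9, 22.1 and 55.4 CPM with IgG and 61.6, 159.6, 129 and 15.2 CPM after anti-Dll4. Anti-Dll4 1, 2 and 3 were above all controls and anti-Dll4 4 was below them. The log2 change was 0.86 ± 0.95 (SE; adjusted p = 0.883, limma), and -0.53 under scaling on endothelial markers. Kcnn4, the intermediate-conductance channel of endothelial hyperpolarization, had 0, 2 and 1 reads with IgG and 0, 1, 2 and 9 after anti-Dll4. At this depth no difference was detectable (pooled ratio 2.75, exact counting interval 0.743 to 15.2). Kcnn1, a small-conductance channel of neurons, had a change of -0.12 ± 1.56. Kcnu1, the pH-gated Slo3 pore subunit, was grouped with this role although it is not opened by calcium or sodium. It had 25 and 39 reads in control IgG 1 and 3 and 1 read over all anti-Dll4 libraries together. Of the listed two-pore-domain genes, Kcnk6 had at most 4 reads in a library, and Kcnk5 had 33 reads in control IgG 4 and at most 1 elsewhere.

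Of 42 genes that work with these channels or carry potassium, 34 were listed and 28 tested. Changes were negative for 20 and positive for 8, with a median of -0.34, and 0 passed the threshold. At an unadjusted p under 0.05 there were 3 of the 28, beside 7.09% of all tested genes. Among them were 2 genes of the sodium-potassium pump, which restores the gradient that the channels use. Atp1b2, a beta subunit of photoreceptors and glia, was at 791, 867 and 549 CPM against 393, 605, 188 and 346 CPM, a change of -1.03 ± 0.39 that was -0.31 with libraries scaled on rod markers. Atp1b3, another beta subunit, went the other way without overlap, from 13, 31 and 67.8 CPM to 130.0, 83.8, 402 and 248 CPM (2.54 ± 0.77; adjusted p = 0.358, limma). Its change was 1.15 with libraries scaled on endothelial markers. These 2 genes were named after their values were seen. The rows left out, Kcnj8 of mural cells and Kcnj10 of Müller glia, had 0 to 14 and 0 to 74 reads per library.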

How the data were processed

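The data were 3′ end (QuantSeq) libraries of RNA bound to tagged ribosomes. Per the submitters' processing notes, cutadapt, TopHat2 and bedtools were used and the genome build was hg19, a human build, although the symbols in the table are mouse symbols. Which annotation was counted, by what rule and whether by strand is not given in the sources used here. Overlapping genes and close paralogs are therefore uncertain. The authors deposited log10 values, which are log10(CPM + 1) judging from the values. CPM summed to 1000000 in each library and 100% of values were whole multiples of 1 read (tolerance 1e-06), so reads were recovered.

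Values were converted to log2(CPM + 1). A gene entered the test if 3 or more libraries had 1 CPM or more, which left 10899 genes. Limma 3.58.1 in R 4.3.3 fitted treatment alone, with trended empirical Bayes variances and two-sided p-values. P-values were adjusted by Benjamini-Hochberg over all 10899 genes, with a threshold of 0.05. The table had 1 control column whose number matches no control title, and it entered the control group unnumbered. It is called control IgG 1 here. The members and lists were chosen with earlier results of these data known. Named members were those past the threshold, those with a mean of at least 5 CPM and groups that do not overlap, the highest of each subfamily, up to 8 per direction with the largest change at a mean log2 level of at least 3, and Kcnv2, Kcnj13, Kcnj14, Kcnma1, Kcnn4, Kcnk5, Kcnk6 and Kcne3. Others were named after their values were seen. Results of some genes that the rule or list names are not reported here, although counts and sums include them. Intervals are at 95%. Those of pooled reads are exact and cover counting error only, since the protocol names no molecular identifiers. Alternatives are given in the closing section.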

Additional observations from a re-analysis of the deposited data

How the results depend on the processing

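The count of 0 members past the threshold was kept under 16 of 17 alternatives. It was 4 with libraries scaled on endothelial markers, where the median member change was -1.86 and 477 genes passed over all (1 higher and 476 lower, against 13 and 0). With libraries scaled on rod markers 40 genes passed, 2 members (6.9%) and 9.1% of all genes had an unadjusted p under 0.05, and the median member change was -0.17, 0.66 below that of all genes (0.48). Without the mean-variance trend 0 genes passed (692 at an unadjusted p under 0.05), and with voom 38. With a library left out, 3 to 20 genes passed (4 without control IgG 1, 20 without control IgG 3, 6 without anti-Dll4 1 or 2 and 3 without anti-Dll4 4), 3 to 6 members had an unadjusted p under 0.05, and the median member change was -0.74 to -0.37. A replicate block on title numbers gave 3 genes and 0 members. The median member change was then -1.126, against -0.065 over all genes, and 20.7% of members against 7.69% had an unadjusted p under 0.05. Only numbers 3 and 4 are shared between the titles of both groups. The change in this fit therefore rests on control IgG 3 and 4 and anti-Dll4 3 and 4 alone. The correlation of deviations from the group means was 0.0457 and 0.0672 for these, and 0.0516 for control IgG 1 with anti-Dll4 1. All other pairs lay between -0.0373 and 0.0151. Libraries with the same number in the column name were thus slightly more alike, although no control title carries the number 1. Deviations within a group sum to 0, so these values are not independent of each other. The labels name no pairs, and whether a number marks a batch was not tested. Neither filter and neither pseudocount (0.5 or 5 CPM) turned the direction of a named gene.

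Scaling on endothelial markers turned the changes of Kcnd3 (-0.82), Kcnab2 (-0.40), Kcnma1 (-0.53), Kcnn4 (-0.11) and Kcnk6 (-0.74). Scaling on rod markers turned Kcnn1 (0.38) and Kcnj14 (0.28), and voom turned Kcnn1 (0.013) and Kcnk6 (-0.00040). The replicate block turned Kcnh2 (0.024), Kcnv2 (0.26), Kcnab2 (-0.76), Kcnmb2 (-2.58) and Kcnk6 (-0.28). Leaving out a library gave ranges across 0 for Kcnd3 (-0.74 to 1.505), Kcnv2 (-1.98 to 0.33), Kcnab3 (-1.37 to 0.64), Kcne2 (-2.30 to 0.13), Kcnmb2 (-0.077 to 2.58), Kcnn1 (-1.07 to 0.99), Kcnn4 (-0.083 to 0.78) and Kcnk6 (-0.42 to 0.34). The cause was not tested. Of 21 genes followed, 9 kept their direction under all 17 alternatives that could be fitted for them, Kcnh6, Kcnj9, Kcnc1 and Kcna6 among them. The rest of the 9, Kcnc2, Kcnip2, Kcnip3, Atp1b2 and Atp1b3, were followed because of their values in the main fit. The count is therefore no measure of how stable the members are. At 1356192 to 1771086 reads per library, members under about 2 CPM cannot be compared.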
